A study of Mus musculus with 24 samples.

Results

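The genes described here are those of the cell division cycle and of DNA replication: cyclins, cyclin-dependent kinases (Cdks) and their inhibitors, the proteins that load and start replication origins, the sliding clamp and its loader, mitotic kinases, the spindle checkpoint and the centromere. They were chosen by gene symbol, from probes annotated to a single gene, by a rule that uses no measured value but was set with earlier results of these data known. The rule found 86 genes, measured by 108 of the 20280 probes, among 8973 named genes. A further 8 probes that match it are annotated to several genes and stayed unnamed. Ccnd1 is among those, so cyclin D1 is not described.

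The arrays carried RNA of mouse cells taken from embryoid bodies, the aggregates in which embryonic stem cells differentiate. Cells positive (Flk+) or negative (Flk-) for Flk1, a receptor for vascular endothelial growth factor, were profiled 84 h, 95 h and 8 d into differentiation, with 4 samples in each of the 6 groups. Each of the 24 samples, labelled with Cy5, shared a two-colour Agilent array with the same Cy3-labelled reference, RNA of homogenized mouse pups, and no array had the dyes exchanged. The labels name neither the stem cell line nor a treatment, and they number the samples 1 to 4 without stating whether each was its own culture. If they were not, the spread behind every p-value is technical. All values are log2 ratios of sample to pup reference with each array's median at 0. Above or below the pup reference thus means above or below that median. A value is read within a gene across arrays, never between genes.

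A cell commits to division in G1, when D-type cyclins with Cdk4 and Cdk6, and then cyclin E with Cdk2, inactivate the retinoblastoma proteins and release E2F transcription factors. E2F targets include the Mcm2 to Mcm7 helicase, which the origin recognition complex and Cdc6 load onto DNA, and Pcna, the clamp that holds DNA polymerases on their template. Entry into mitosis is driven by Cdk1 with cyclins A and B, and the Aurora and Polo-like kinases, the Bub proteins and Cdc20 then control the spindle and chromosome separation. Inhibitors of the Cip/Kip family (Cdkn1a, Cdkn1b, Cdkn1c) and of the Ink4 family (Cdkn2b, Cdkn2c, Cdkn2d) restrain the kinases. Mouse embryonic stem cells are known for a short G1 with little Cdk inhibitor and high cyclin E, and G1 lengthens as they differentiate.

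Kdr, the gene of Flk1, was higher in Flk+ cells at each time, by 1.91 at 84 h (2.54 without Flk+ arrays 2 and 4, which are described next), 2.93 at 95 h and 1.89 at 8 d. The direction of the ratio was itself read partly from Kdr, so the sign of these differences is no independent check. At 84 h the Kdr values of Flk+ arrays 1 to 4 were 1.80, 0.04, 1.43 and 0.67, and those of the Flk- arrays ran from -1.08 to -0.74. Of 7 mesoderm genes, 7 were called higher in Flk+ cells at 84 h, where 5.3% of all features were, and 4 at 95 h (0.659% of all features). Of 10 pluripotency genes, 6 were called lower at 84 h (8.18% of all features) and 4 at 95 h (1.37%). Of 7 endothelial genes, 3 were called higher at 8 d (0.149%), and Kdr, the gene of the sort, is among them. With Flk+ arrays 2 and 4 left out, the 84 h counts were 6 of 7 mesoderm and 4 of 10 pluripotency genes. In that fit the endothelial genes went both ways before 8 d. At 84 h 1 of the 7, Kdr, was called higher (2.38% of all features) and 2 lower (5.76%). At 95 h 1, again Kdr, was higher (1.31%) and 1 lower (2.4%), and at 8 d 4 were higher (0.419%). The part of these marker differences in the cell cycle values was not tested. In such bulk RNA, fewer cells of a type and less RNA per cell cannot be told apart.

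Arrays 2 and 4 of the Flk+ cells at 84 h stood apart from arrays 1 and 3, and this touches every comparison with that group. They also had the widest spread of values over all probes, with SDs of 1.01 and 1.00 against 0.562 to 0.851 on the other arrays. Correlations over all features within the group ran from 0.59 to 0.93. The part of this spread in the differences of single genes was not tested. Of the 86 genes, 49 (57%) lay lower on both of these arrays than on both others, against 26.6% of all 17440 features, and 24 (27.9%) lay higher, against 37.6%. The median difference of the pair from arrays 1 and 3 was -0.32 over the cell cycle genes and 0.11 over all features. Counts of calls over the 86 genes between groups and over the pathway lists, and the genes that turn on that group, are therefore given with and without them. Counts of calls by role, and those of mesoderm and pluripotency genes at 95 h, are given with all arrays only. At 95 h, the arrays numbered 2 were the lowest of their group in both sorts for 32 of the genes (37.2%), against 19.7% of all features.

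Most of the genes lay above the pup reference throughout: between 60 and 68 of the 86 had a group mean above 0 in each of the 6 groups. Because each array's median was set to 0, between 49.4% and 50.3% of all features lay above 0 on each array. Among the Cdk inhibitors, 0 of 6 lay above 0 in Flk+ cells at 84 h (1 of 6 on arrays 1 and 3 alone) and 1 of 6 in Flk- cells, against 3 of 6 and 2 of 6 at 8 d. Of the 11 Cdks that act largely outside the division cycle, between 4 and 6 lay above 0 in each group. The genes of the replicative helicase and its activators had a median of 0.54 in Flk+ and 1.33 in Flk- cells at 84 h, but of 1.35 on Flk+ arrays 1 and 3 alone. Their means over these genes on Flk+ arrays 1 to 4 were 1.13, 0.15, 1.13 and 0.15, against 1.07 to 1.41 on the Flk- arrays. The helicase medians were 1.16 and 1.21 at 95 h, and 0.64 and 0.88 at 8 d. Thus the median of the helicase genes lay lower at 8 d than at 95 h in both sorts.

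The clearest changes came between 95 h and 8 d. In Flk+ cells 10 of the 86 genes rose (12.8% of all features did) and 17 fell (9.31% of all features), while 59 were not called; the median difference was -0.101, against -0.012 over all features. In Flk- cells 10 rose (9.88% of all features) and 10 fell (7.78% of all features), with a median of -0.065 against -0.034. The share called, 27 of 86 in Flk+ and 20 of 86 in Flk- cells, stood beside 22.1% and 17.7% of all features called either way. When Flk+ arrays 2 and 4 at 84 h were left out, 41 (32.8% of all features) and 33 (28.2%) were called. The comparisons of the sorts share no array, but they share the fit and its estimate of the spread, and same-numbered arrays of the sorts were correlated. They are therefore not independent. Of the genes, 14 moved the same way in both sorts, 51.9% of the Flk+ and 70% of the Flk- calls. Over all features the same shares were 52% and 65.2%. Those 14 were Cdkn1c, Cdkn2d, Ccnd3, Cdk7, Plk2 and Cdc20, which rose, and Mcm2, Mcm10, Orc1, Rfc5, Ccne1, Aurka, Bub1b and Cenpf, which fell; Ccnd2 was called in opposite directions.

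**Figure D1:**
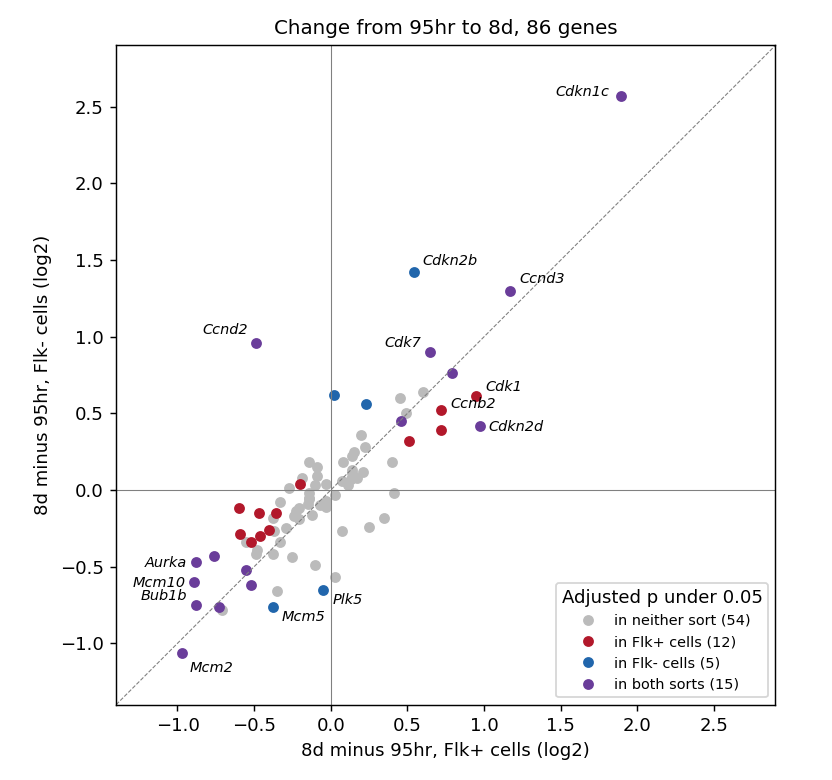
Difference between 8d and 95hr in Flk+ cells (x axis, log2) and in Flk- cells (y axis, log2) for each of the 86 genes; colours give the sort in which the adjusted p was under 0.05 and the dashed line marks equal differences. Cdkn1c lies farthest out (1.89 and 2.57), Mcm2 lowest (-0.97 and -1.06), and Ccnd2 has opposite signs (-0.49 and 0.96).

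Cdkn1c, the Cip/Kip inhibitor p57, had the largest rise of all the genes in both sorts. Its values on Flk+ arrays 1 to 4 were -3.22, -2.69, -2.5 and -2.42 at 95 h and -0.79, -0.75, -0.57 and -1.15 at 8 d. In Flk- cells they were -3.75, -3.01, -3.11 and -2.95 at 95 h and -0.27, -0.62, -0.55 and -1.08 at 8 d. No 8 d array overlapped a 95 h array of its sort, and the gene stayed below the pup reference on all of them. Such separation between 95 h and 8 d was common. It held for 42 of the 86 genes and 34.6% of all features in Flk+ cells, and for 23 genes and 27.8% in Flk- cells. These shares stand beside each such statement below for that interval. The rise was 1.89 ± 0.20 (SE), or 3.72-fold, in Flk+ cells (limma adjusted p = 4.57e-07) and 2.57 ± 0.20, or 5.95-fold, in Flk- cells (adjusted p = 6.33e-09). The difference between these rises, -0.68 with a 95% interval from -1.27 to -0.09, was not called over all features (adjusted p = 0.529).

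Among the Ink4 inhibitors, Cdkn2d (p19) rose in both sorts. On Flk+ arrays it read -0.53, -0.83, -0.42 and -0.79 at 95 h and 0.32, 0.46, -0.01 and 0.55 at 8 d, without overlap, a rise of 0.97 ± 0.14 (1.96-fold, adjusted p = 2.01e-05). On Flk- arrays it read -0.25, -0.62, -0.59 and -0.74 and then -0.04, 0.01, -0.44 and -0.04, where array 3 at 8 d lay below array 1 at 95 h. The rise there was 0.42 ± 0.14 (adjusted p = 0.0364), and it was no longer called without any of Flk- arrays 2, 3 and 4 at 95 h or 1, 2 and 4 at 8 d.

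Cdkn2b, which encodes p15, a Cdk4 and Cdk6 inhibitor, was called in Flk- cells. Its Flk- values were -0.71, -0.73, 0.18 and -0.85 at 95 h and 1.37, 0.52, 0.90 and 0.77 at 8 d, a rise of 1.42 ± 0.20 (2.67-fold, adjusted p = 2.92e-05). In Flk+ cells it went from -0.45, -0.13, 0.01 and -0.60 to 0.46, 0.19, 0.15 and 0.19, a difference of 0.54 ± 0.20 that missed the threshold (adjusted p = 0.0608). All 8 d arrays of either sort lay above all its 95 h arrays. The difference between the sorts' changes, -0.87 ± 0.29, was not called (adjusted p = 0.307).

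Cdkn1a (p21, a target of p53) moved with time from its lowest level at 84 h. Flk+ arrays 1 to 4 read -1.71, -2.06, -1.69 and -1.80 at 84 h, -0.74, -0.92, -1.05 and -1.30 at 95 h, and -0.17, 0.15, -0.10 and -1.01 at 8 d. It rose by 0.81 ± 0.19 between the earlier times (adjusted p = 0.00863) and by 0.72 ± 0.19 to 8 d (adjusted p = 0.0081), although Flk+ array 4 at 8 d lay within the 95 h range. Flk- arrays read -0.91, -1.47, -1.33 and -1.12 at 84 h, -0.55, -0.33, -0.47 and -0.70 at 95 h, and -0.14, -0.39, 0.10 and -0.06 at 8 d, with neither step called. Without Flk+ arrays 2 and 4 at 84 h, the Flk+ step from 84 h was 0.70 (adjusted p = 0.0885) and the Flk- step of 0.69 was called (adjusted p = 0.0396). Cdkn2c (p18) also rose in Flk+ cells from 95 h to 8 d, by 0.51 ± 0.14 (adjusted p = 0.0101). Quantile normalization left neither Cdkn1a nor Cdkn2c called in that comparison. In all, 4 of the 6 inhibitors rose in Flk+ cells and 3 of 6 in Flk- cells, and 0 fell in either, where 12.8% and 9.88% of all features rose.

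**Figure D2:**
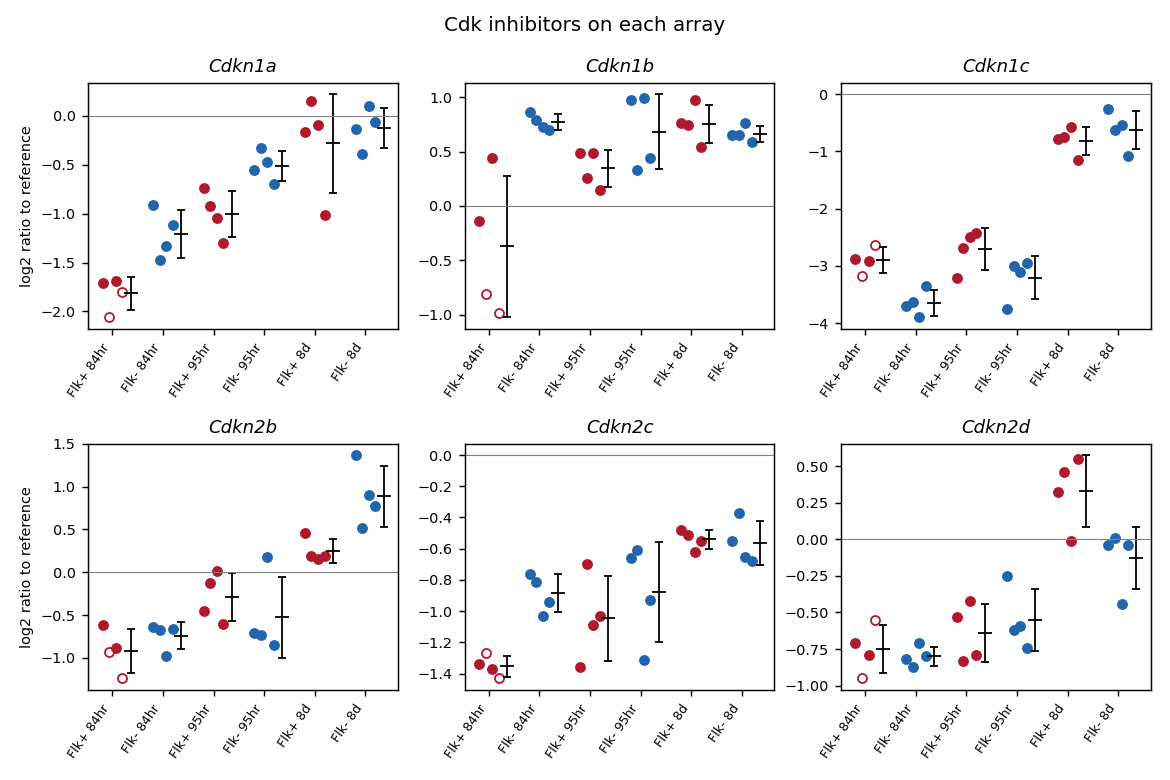
Log2 ratio to the pup reference of the 6 Cdk inhibitor genes on each array, by group; red is Flk+, blue Flk-, open circles are Flk+ 84hr arrays 2 and 4, and black marks give the mean ± SD of 4 arrays. Cdkn1c, Cdkn2b and Cdkn2d lie highest at 8d in both sorts, and Cdkn1b has its lowest group mean in Flk+ cells at 84hr, with the open circles below the other 2 arrays.

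The G1 cyclins went 3 different ways. Ccnd3, cyclin D3, rose in both sorts: Flk+ arrays read 0.35, 0.05, 0.19 and 0.17 at 95 h and 1.62, 1.43, 1.34 and 1.06 at 8 d, and Flk- arrays 0.23, -0.24, -0.06 and 0.04 and then 1.10, 1.65, 1.14 and 1.26. The groups of a sort did not overlap, and the rises were 1.17 ± 0.17 (2.25-fold, adjusted p = 2.66e-05) and 1.30 ± 0.17 (2.46-fold, adjusted p = 8.63e-06). Ccne1, cyclin E1, fell from a mean of 1.48 ± 0.15 (SD, n = 4) to 0.72 ± 0.14 in Flk+ cells and from 1.36 ± 0.22 to 0.93 ± 0.13 in Flk- cells. Its fall was 0.76 on the log2 scale in Flk+ cells (a difference of -0.76, adjusted p = 8.51e-05) and a difference of -0.43 in Flk- cells (adjusted p = 0.0152), the latter lost without Flk- array 4 at 95 h or at 8 d.

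Ccnd2, cyclin D2, was the single gene of the 86 whose difference between the sorts changed over time by the test of that change. Flk+ arrays 1 to 4 read -0.35, -0.88, -0.41 and -0.76 at 84 h, 0.01, -0.51, -0.20 and -0.21 at 95 h, and -0.80, -0.56, -0.76 and -0.76 at 8 d. Flk- arrays read -1.17, -1.24, -1.30 and -1.22, then -0.57, -1.35, -1.10 and -1.20, and then -0.16, -0.18, 0.02 and -0.07. Thus the Flk+ arrays lay above all Flk- arrays at 84 h and at 95 h, and below all of them at 8 d. The sorts did not overlap, in either direction, for 17.4%, 4.81% and 15.9% of all features at these times.

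Ccnd2 was higher in Flk+ cells by 0.63 ± 0.14 at 84 h (1.55-fold, adjusted p = 0.00787) and by 0.82 ± 0.14 at 95 h (1.77-fold, adjusted p = 0.00181), and stood at -0.62 ± 0.14 at 8 d (adjusted p = 0.0626). Between 95 h and 8 d it fell in Flk+ cells (-0.49 ± 0.14, adjusted p = 0.0172) and rose in Flk- cells (0.96 ± 0.14, 1.94-fold, adjusted p = 5.29e-05). The change of the sort difference was -1.45 ± 0.20 (adjusted p = 0.000658), where 0.533% of all features were called, and it was called under all 32 alternatives run. With the array number as a block, the 8 d difference of -0.62 was called as well (adjusted p = 0.0184). Without Flk+ arrays 2 and 4, the 84 h difference was 0.85 (adjusted p = 0.00181). With only the 8 arrays of a time, neither the 84 h nor the 95 h difference was called.

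The 4 probes of Ccnd2 gave sort differences from -0.14 to 1.28 at 84 h, from 0.58 to 1.08 at 95 h and from -0.75 to -0.42 at 8 d. They thus shared a sign at 95 h and 8 d and not at 84 h. The Flk+ fall to 8 d was lost with the single most variable probe of each gene and without Flk+ array 1 at 95 h.

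**Figure D3:**
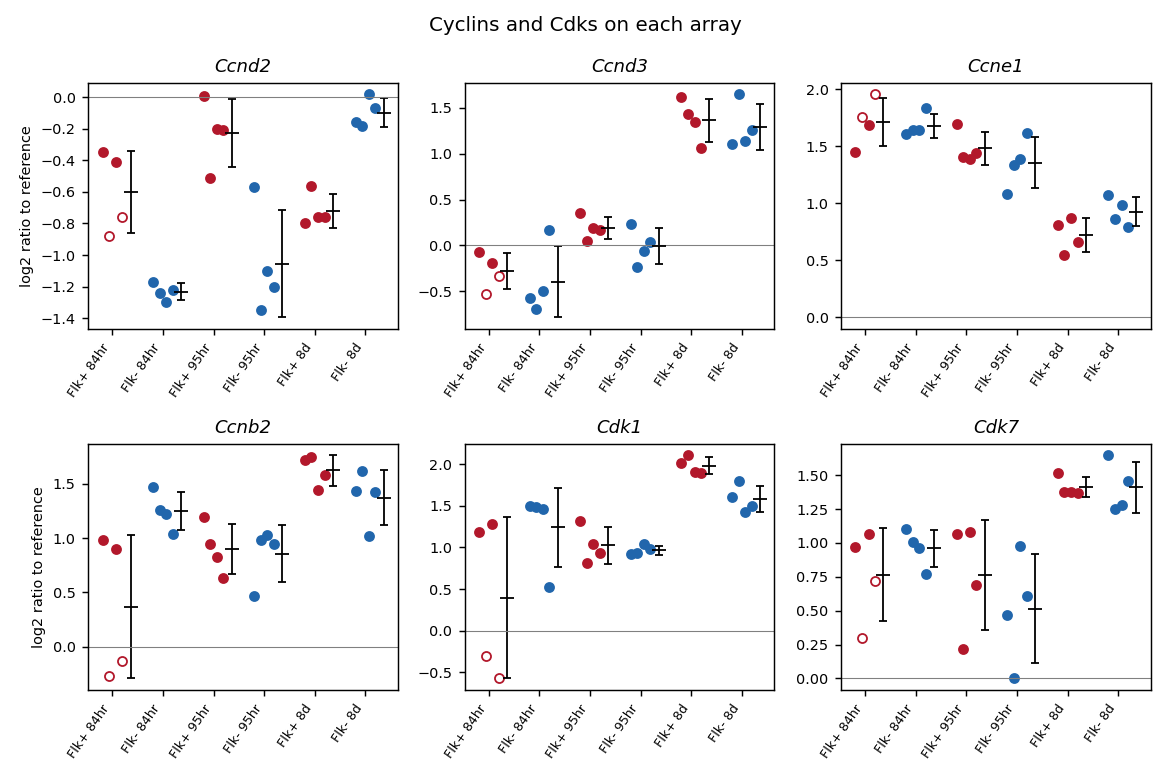
Log2 ratio to the pup reference of 3 G1 cyclins, cyclin B2, Cdk1 and Cdk7 on each array, by group; red is Flk+, blue Flk-, open circles are Flk+ 84hr arrays 2 and 4, and black marks give the mean ± SD of 4 arrays. Flk+ values of Ccnd2 lie above the Flk- values at 84hr and 95hr and below them at 8d, while Ccnd3 rises and Ccne1 falls to 8d in both sorts.

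Cdk1, the mitotic kinase, and its partner cyclin B2 (Ccnb2) rose in Flk+ cells between 95 h and 8 d, while Mcm2 and other genes of replication fell. Genes of mitosis fell there too, among them Aurka, Bub1b, Plk1 and Cenpf. Cyclin A2 (Ccna2), another partner of Cdk1, was also called lower (-0.47), and its 2 probes gave -0.84 and -0.09. Promoters of genes of mitosis and of replication commonly carry different elements: a cell cycle genes homology region (CHR) with nearby CCAAT boxes in the former, and E2F sites in the latter. As examples, the windows of 4 members called higher or lower at 8 d are shown, not all of them called in the same sort. They run from 250 bases before to 50 after the annotated start. They come from RefSeq on GRCm38.p6, with matches to TTTGAA (CHR), CCAAT, and TTTCCCGC or TTTGGCGC (E2F) on either strand in capitals. Cdk1 (chr10:69352863-69353162, minus strand) and Ccnb2 (chr9:70421505-70421804, minus strand) were called higher in Flk+ cells only. Mcm2 (chr6:88898731-88899030, minus strand) fell in both sorts, and Mcm5 (chr8:75109259-75109558, plus strand) was called lower in Flk- cells only.
Cdk1: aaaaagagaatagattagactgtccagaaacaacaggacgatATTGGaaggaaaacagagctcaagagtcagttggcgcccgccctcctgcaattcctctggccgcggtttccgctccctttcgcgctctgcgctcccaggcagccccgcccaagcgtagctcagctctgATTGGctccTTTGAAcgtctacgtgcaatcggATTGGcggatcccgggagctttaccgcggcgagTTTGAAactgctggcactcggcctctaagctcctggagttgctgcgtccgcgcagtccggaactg
Ccnb2: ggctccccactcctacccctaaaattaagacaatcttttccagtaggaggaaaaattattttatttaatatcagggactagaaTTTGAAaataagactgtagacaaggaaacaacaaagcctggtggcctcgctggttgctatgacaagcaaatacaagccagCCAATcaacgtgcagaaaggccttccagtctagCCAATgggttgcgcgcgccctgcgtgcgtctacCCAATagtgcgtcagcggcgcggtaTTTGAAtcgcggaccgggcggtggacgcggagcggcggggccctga
Mcm2: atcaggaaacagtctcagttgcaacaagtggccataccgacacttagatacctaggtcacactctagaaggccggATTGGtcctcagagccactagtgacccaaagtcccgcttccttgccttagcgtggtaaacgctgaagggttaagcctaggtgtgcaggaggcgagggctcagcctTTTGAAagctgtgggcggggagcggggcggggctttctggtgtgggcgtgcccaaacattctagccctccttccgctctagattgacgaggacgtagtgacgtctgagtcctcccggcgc
Mcm5: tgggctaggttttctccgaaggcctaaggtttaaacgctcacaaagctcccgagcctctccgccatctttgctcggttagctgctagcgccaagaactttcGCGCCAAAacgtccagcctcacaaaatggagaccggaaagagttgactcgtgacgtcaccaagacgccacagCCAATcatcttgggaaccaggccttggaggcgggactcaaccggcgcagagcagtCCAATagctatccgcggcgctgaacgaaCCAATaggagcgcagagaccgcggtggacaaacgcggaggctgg

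The Cdk1 and Ccnb2 windows each hold 3 CCAAT and 2 CHR matches, with the second CHR match 15 bases before the start in Cdk1 and 5 bases into the transcript in Ccnb2. Mcm5 holds 1 E2F match, 149 bases before the start, and 3 CCAAT matches, and Mcm2 holds 1 CHR and 1 CCAAT match and none of the E2F letters. Windows were listed for 74 of the 86 genes, 86 windows in all; those of Cdk5, Cdk17, Cdk19, Ccna2, Ccnd2, Cdc25c, Cdkn1c, Aurkb, Mcm4, Gins1, Gins4 and Rfc2 were not used here. Of these windows 12.8% held an E2F match, against 1.56% of the 32851 windows of all genes. A CCAAT match stood in 62.8% against 37.4%, and a CHR match in 20.9% against 17.9%. The members' windows had a mean GC content of 60.4%, against 53.8%, and no 2 different motifs overlapped in them. CHR and CCAAT matches also stood in windows of Aurka, Bub1b, Plk1 and Cenpf, which fell in Flk+ cells, and of Cdc20, which rose. Whether the matches go with the direction of change was not tested. A match describes letters only, not a bound site.

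Cdk1 read 1.32, 0.81, 1.04 and 0.93 on Flk+ arrays at 95 h and 2.01, 2.11, 1.91 and 1.89 at 8 d, without overlap. The rise was 0.95 ± 0.30 (1.94-fold, adjusted p = 0.0255). Ccnb2 went from 1.19, 0.95, 0.83 and 0.63 to 1.72, 1.75, 1.44 and 1.58, a rise of 0.72 ± 0.23 (1.65-fold, adjusted p = 0.0239). Leaving out Flk+ array 4 at 95 h, or array 1 or 2 at 8 d, ended both calls, as did leaving out Flk+ array 2 at 95 h for Cdk1 and array 3 at 95 h for Ccnb2. With Flk+ arrays 2 and 4 at 84 h left out, the same differences had adjusted p-values of 0.00017 and 0.000769.

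In Flk- cells Cdk1 differed by 0.61 ± 0.30 (adjusted p = 0.175) and Ccnb2 by 0.52 ± 0.23 (adjusted p = 0.122), with values of 0.92, 0.93, 1.04 and 0.98 against 1.60, 1.80, 1.43 and 1.5 for Cdk1 and of 0.47, 0.98, 1.03 and 0.95 against 1.43, 1.62, 1.02 and 1.42 for Ccnb2. These Flk- differences were called too without Flk+ arrays 2 and 4 at 84 h (adjusted p = 0.00856 for Cdk1 and 0.0118 for Ccnb2). The difference between the sorts' changes was 0.34 with a 95% interval from -0.54 to 1.23 for Cdk1, so a difference of the sorts was not shown. Cdc20, which activates the anaphase-promoting complex, rose by 0.46 in Flk+ cells (adjusted p = 0.022) and 0.45 in Flk- cells (adjusted p = 0.0291), calls that ended without Flk+ array 2 at 95 h or 4 at 8 d, and without Flk- array 2 at 95 h or any Flk- array at 8 d. Cdk7, a kinase that activates other Cdks and is part of transcription factor IIH, read 1.07, 0.22, 1.08 and 0.69 and then 1.52, 1.38, 1.38 and 1.37 in Flk+ cells, and 0.47, 0.00, 0.98 and 0.61 and then 1.65, 1.25, 1.28 and 1.46 in Flk- cells. It rose by 0.65 ± 0.20 (adjusted p = 0.0216) and 0.90 ± 0.20 (adjusted p = 0.00257), the first lost without Flk+ array 2 or 4 at 95 h or array 1 at 8 d. Of the 11 other Cdks, whose roles lie largely outside the division cycle, 1 was called in each sort, beside 22.1% and 17.7% of all features: Cdk18 fell in Flk+ cells (-0.46, a call lost without Flk+ array 2 or 3 at 95 h or any Flk+ array at 8 d) and Cdk14 rose in Flk- cells (0.62).

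The helicase genes fell or were not called. Mcm2, a subunit of the helicase ring, read 0.34, 0.64, 0.81 and 0.66 on Flk+ arrays at 95 h and -0.29, -0.46, -0.25 and -0.41 at 8 d, and 0.16, 0.71, 0.93 and 0.65 and then -0.39, -0.44, -0.40 and -0.58 on Flk- arrays. It passed from above to below the pup reference on every array of both sorts, with differences of -0.97 ± 0.18 (1.95-fold, adjusted p = 0.000367) and -1.06 ± 0.18 (2.09-fold, adjusted p = 0.000149). Mcm10, which helps to activate the loaded helicase, went from 1.45, 1.5, 1.65 and 1.56 to 0.64, 0.48, 0.64 and 0.82 in Flk+ cells and from 1.31, 1.47, 1.54 and 1.59 to 0.94, 0.70, 0.84 and 1.02 in Flk- cells. Its differences were -0.89 ± 0.14 (adjusted p = 4.58e-05) and -0.60 ± 0.14 (adjusted p = 0.00298).

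Of the 11 genes of the helicase and its activators, 3 fell in each sort (9.31% of all features did in Flk+ and 7.78% in Flk- cells) and 0 rose, with medians of -0.382 in Flk+ and -0.344 in Flk- cells, and 11 of 11 had a difference below 0 in Flk- cells. The third fall was Mcm7 in Flk+ cells (-0.52, adjusted p = 0.0355) and Mcm5 in Flk- cells (-0.76, adjusted p = 0.000861). The Mcm7 call ended without any 1 of Flk+ arrays 2, 3 and 4 at 95 h or of the 4 Flk+ arrays at 8 d. Mcm5 stood at -0.38 in Flk+ cells (adjusted p = 0.0697). Mcm3 was the exception to the direction in Flk+ cells, at 0.25, with values of 1.66, 1.61, 1.81 and 1.89 at 8 d against 1.33, 1.59, 1.32 and 1.72 at 95 h. In Flk- cells it went from 1.46, 1.67, 1.53 and 1.79 to 1.43, 1.45, 1.46 and 1.15. Mcm6, with means of 1.64 ± 0.24 and 0.92 ± 0.16 in Flk+ cells at 95 h and 8 d, had a difference of -0.71 that was not called (adjusted p = 0.287), and of -0.78 in Flk- cells (adjusted p = 0.262). Both Mcm6 differences were called without Flk+ arrays 2 and 4 at 84 h, with adjusted p-values of 0.00735 and 0.00466.

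**Figure D4:**
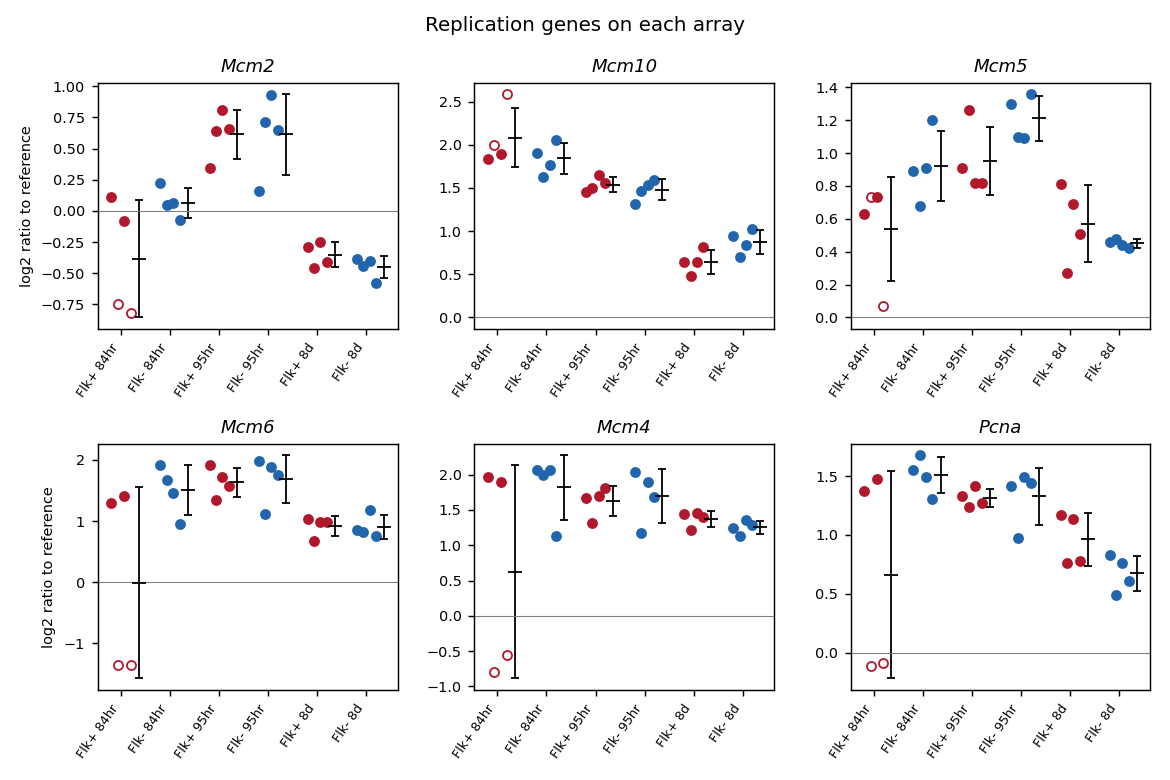
Log2 ratio to the pup reference of 5 Mcm genes and Pcna on each array, by group; red is Flk+, blue Flk-, open circles are Flk+ 84hr arrays 2 and 4, and black marks give the mean ± SD of 4 arrays. Mcm2 and Mcm10 lie lower at 8d than at 95hr in both sorts, and the open circles of Mcm2, Mcm4, Mcm6 and Pcna lie below the other arrays of their group.

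Orc1, the largest origin recognition subunit, was the single gene of 6 called in that group: it fell by 0.52 on the log2 scale in Flk+ cells (adjusted p = 0.00645), from a mean of 0.78 ± 0.05 to 0.26 ± 0.02, and differed by -0.62 in Flk- cells (adjusted p = 0.0017). Its 2 probes gave -0.98 and -0.05 in Flk+ cells. Among the clamp and its loader 1 of 6 fell in each sort, Rfc5, a loader subunit, beside 9.31% and 7.78% of all features. Rfc5 read 1.58, 1.39, 1.64 and 1.58 and then 1.01, 0.73, 0.82 and 0.71 in Flk+ cells, a difference of -0.73 (adjusted p = 0.0193), and 1.31, 1.47, 2.02 and 1.87 and then 0.93, 0.87, 0.95 and 0.89 in Flk- cells, -0.76 (adjusted p = 0.0188). These calls ended without Flk+ array 2 or 4 at 8 d and without Flk- array 3 or 4 at 95 h. Pcna read 1.33, 1.24, 1.42 and 1.27 and then 1.17, 0.76, 1.14 and 0.78 in Flk+ cells, and 1.42, 0.97, 1.49 and 1.44 and then 0.83, 0.49, 0.76 and 0.61 in Flk- cells. All its 8 d values lay below its 95 h values within a sort, and neither difference was called.

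Mitotic genes were divided. Aurka, the Aurora kinase of the spindle poles, fell in Flk+ cells from 1.18 ± 0.07 to 0.30 ± 0.05 (-0.88, adjusted p = 7.89e-05) and in Flk- cells from 0.92 ± 0.27 to 0.45 ± 0.08 (-0.47, adjusted p = 0.0204), the latter lost without Flk- array 2, 3 or 4 at 95 h or array 3 at 8 d. Bub1b, the checkpoint protein BubR1, fell by 0.88 on the log2 scale in Flk+ cells (adjusted p = 6.28e-05) and differed by -0.75 in Flk- cells (adjusted p = 0.000441). Plk1, the Polo-like kinase of mitotic entry, fell in Flk+ cells (-0.60, adjusted p = 0.00188). Plk2, a member of the same family with roles outside mitosis, rose in both sorts (0.79, adjusted p = 0.000254, and 0.76, adjusted p = 0.000454). Of the 15 centromere genes 2 fell in Flk+ and 1 in Flk- cells (9.31% and 7.78% of all features), Cenpf in both (-0.55 and -0.52) and Cenpu in Flk+ cells (-0.59), and 0 rose. Cenpf was no longer called in Flk+ cells without Flk+ array 1, 2 or 3 at 95 h or array 1 or 2 at 8 d, and in Flk- cells (adjusted p = 0.0499) under 23 of the 32 alternatives.

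Mki67, the gene of the proliferation marker Ki-67, was not called in any comparison. Its group means, -0.28 ± 0.58 and -0.13 ± 0.10 at 84 h, -0.22 ± 0.29 and -0.13 ± 0.17 at 95 h, and 0.18 ± 0.30 and 0.05 ± 0.21 at 8 d in Flk+ and Flk- cells, lay near that of the pup reference. At 8 d its values were 0.06, 0.23, 0.57 and -0.13 in Flk+ and -0.14, 0.00, 0.34 and -0.02 in Flk- cells, and at 95 h -0.12, -0.65, -0.10 and 0.00, and -0.09, -0.34, 0.07 and -0.18. Its 2 probes disagreed at 84 h, with sort differences of 0.56 and -0.86.

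Pathway genes outside the symbol rule were read from lists of replication enzymes, of the mitotic apparatus and of upstream regulators. The shares called either way stand beside 22.1% of all features in Flk+ and 17.7% in Flk- cells. Of 28 replication enzymes 5 fell and 1 rose in Flk+ cells from 95 h to 8 d, and 4 fell and 1 rose in Flk- cells, which is 21.4% and 17.9% called and near the shares of all features. The replisome protein Wdhd1 had differences of -1.32 and -0.90 and the uracil-DNA glycosylase Ung of -1.06 and -1.04, while thymidine kinase Tk1 rose by 0.83 and 0.55. Of 36 genes of the mitotic apparatus and the anaphase-promoting complex, 1 rose and 1 fell in Flk+ cells, and 2 rose and 2 fell in Flk- cells (5.56% and 11.1% called). Espl1, the separase that cleaves cohesin, fell in both (-1.28 and -0.83). Among 28 regulators of the Rb, E2F, Myc and p53 pathways, 3 rose and 6 fell in Flk+ cells, and 3 rose and 4 fell in Flk- cells (32.1% and 25% called). Ccng2, an atypical cyclin of arrested cells, rose by 1.35 and 0.88, and Mycl fell, with differences of -1.15 and -1.11. Without Flk+ arrays 2 and 4 at 84 h, more genes of each list were called, beside 32.8% and 28.2% of all features. Of the replication enzymes, 1 rose and 10 fell in Flk+ cells, and 1 rose and 8 fell in Flk- cells. For the mitotic apparatus 3 rose and 7 fell, and 3 rose and 4 fell. Among the regulators 4 rose and 9 fell, and 5 rose and 5 fell.

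At 84 h, 16 of the 86 genes were lower in Flk+ than in Flk- cells (8.18% of all features were) and 7 were higher (5.3% of all features), with a median difference of -0.115 against 0.004. Without Flk+ arrays 2 and 4, 7 genes were called (8.14% of all features), 4 higher (2.38% of all features) and 3 lower (5.76% of all features), 6 of them among the 23, and the median was 0.018. The count also moved to 11 without Flk+ array 2 alone, 7 without array 4, 35 without array 3, and 8, 9 and 9 without Flk- array 1, 2 or 3. With only the 8 arrays compared, 1 gene, Cdk14, was called (1.99% of all features).

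The values show this directly. Mcm6 read 1.29, -1.36, 1.41 and -1.36 on Flk+ arrays 1 to 4 and 1.92, 1.68, 1.46 and 0.96 on Flk- arrays at 84 h, a difference of -1.51 ± 0.45 (adjusted p = 0.0336) that became -0.16 (adjusted p = 0.774) without arrays 2 and 4. Orc4, an origin recognition subunit, read 0.62, -1.5, 0.70 and -0.91 against 1.19, 1.04, 0.95 and 0.08, and the loader subunits followed: Rfc3 read 0.42, -0.92, 0.54 and -0.86 against 0.96, 0.65, 0.83 and 0.21, and Rfc5 1.41, 0.15, 1.40 and 0.25 against 1.81, 1.62, 1.79 and 1.63. Pcna read 1.37, -0.11, 1.48 and -0.09 against 1.55, 1.68, 1.49 and 1.31. Ccnb2 read 0.98, -0.27, 0.90 and -0.13 against 1.47, 1.26, 1.22 and 1.04, and Cdk9, a transcription kinase, -0.14, -1.01, -0.14 and -1.16 against 0.34, 0.06, 0.10 and -0.16. On arrays 1 and 3 these genes lay near or within the Flk- range, and on arrays 2 and 4 below it. None of the 7 was called without those arrays.

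The same split ran through most roles but not all. The median difference of arrays 2 and 4 from arrays 1 and 3 was -1.03 for origin recognition and loading, -0.98 for the clamp and its loader, -0.80 for the helicase and -0.42 for centromere genes. It was 0.01 for the spindle checkpoint group, 0.06 for the Cdc25 phosphatases and 0.22 for the Cdks outside the division cycle, whose genes lay on either side of 0. Cenpa, the centromeric histone, read 1.01, -0.93, 1.13 and -1.15, Cenph 0.93, -0.92, 1.00 and -1.24, and Cdk1 1.18, -0.30, 1.28 and -0.57. Flk- array 4 was the lowest of its group for Cenpa (0.21), Cenph (0.31) and Cdk1 (0.53). In the wider lists, 18 of 28 replication enzymes and 30 of 36 mitotic apparatus genes lay lower on both arrays, where 26.6% of all features did. Of the markers, 5 of 7 mesoderm and 5 of 7 endothelial genes lay higher, where 37.6% of all features did. So did 4 of 8 pup tissue, 2 of 4 neural, and 2 of 4 erythroid and blood genes. The same held for 2 of 7 endoderm and 2 of 7 muscle genes. Of 10 pluripotency genes, 5 lay lower and 3 higher. Kdr, itself on the endothelial list, was lower on these arrays, and the part of the marker genes in the split was not tested.

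**Figure D5:**
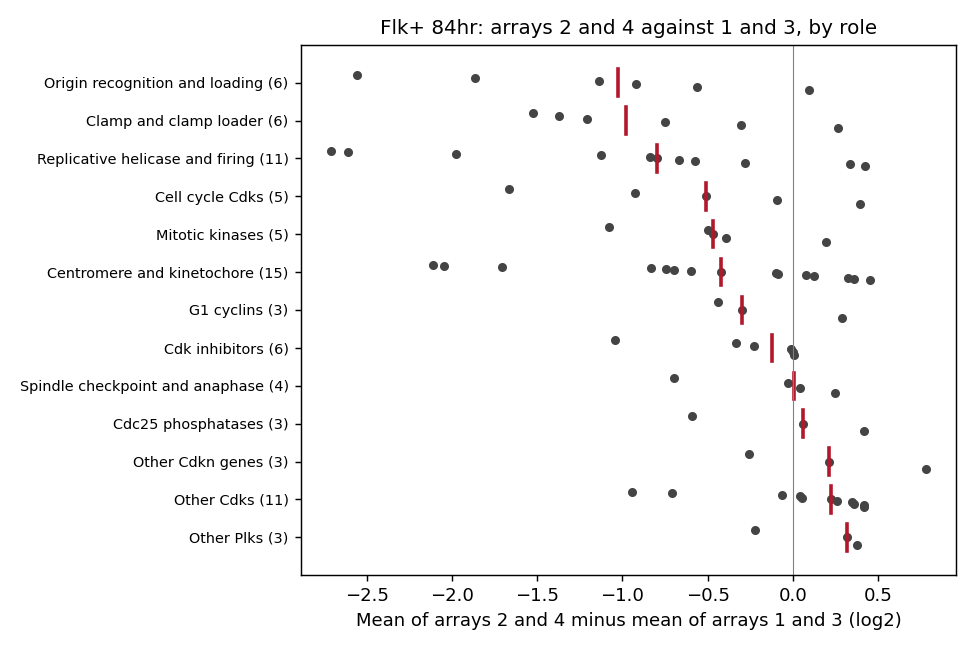
Mean of arrays 2 and 4 minus mean of arrays 1 and 3 of the Flk+ 84hr group (x axis, log2) for each gene, by role (y axis, number of genes in brackets; roles with at least 3 genes); red lines are medians. Genes of origin loading, the clamp and the helicase lie furthest below 0, and the Cdks outside the division cycle and the other Polo-like kinases mostly above it.

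The sort differences of 6 genes at 84 h were called both with all arrays and without Flk+ arrays 2 and 4. Ccnd2 is described above. Cdkn1b, the inhibitor p27, read -0.14, -0.81, 0.44 and -0.98 in Flk+ and 0.86, 0.79, 0.73 and 0.70 in Flk- cells. All Flk+ values lay below all Flk- values, and 17.4% of all features did not overlap between the sorts in either direction. The difference was -1.14 ± 0.22 (2.21-fold, adjusted p = 0.00173), and -0.62 ± 0.18 (adjusted p = 0.0382) without the pair, a call that ended when Flk- array 4 was left out too. Mcm3, a helicase subunit, read 1.45, 1.81, 1.41 and 1.72 against 2.03, 2.26, 1.99 and 2.18, a difference of -0.52 ± 0.12 (adjusted p = 0.00885), and -0.68 (adjusted p = 0.00258) without the pair. Here arrays 2 and 4 were the higher ones.

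Plk5, a Polo-like kinase without an active kinase domain, read 0.06, 0.30, 0.06 and 0.46 against 0.52, 0.66, 0.84 and 0.90 at 84 h (-0.51 ± 0.13, adjusted p = 0.0143) and -0.06, 0.24, -0.03 and 0.05 against 1.06, 0.71, 0.43 and 0.39 at 95 h (-0.60 ± 0.13, adjusted p = 0.0109). At 8 d both sorts lay between -0.07 and 0.04, and its fall in Flk- cells from 95 h was called (-0.65 ± 0.13, adjusted p = 0.000911). Cdk14, a kinase linked to Wnt receptor signalling, was higher in Flk+ cells at 84 h, 0.64 ± 0.04 against -0.04 ± 0.13 (SD, n = 4; difference 0.68, adjusted p = 0.00254), and Cenpo, a kinetochore protein, by 0.36 (adjusted p = 0.0412). The Cenpo call ended without Flk+ array 4 or Flk- array 1, 2 or 3 at 84 h, or Flk+ array 1, 2 or 3 at 8 d. Cdkn1a was lower in Flk+ cells (-0.61, adjusted p = 0.0397) and Cdkn1c higher (0.75, adjusted p = 0.0213), with -2.88, -3.18, -2.91 and -2.63 in Flk+ and -3.70, -3.64, -3.90 and -3.35 in Flk- cells for Cdkn1c. Without arrays 2 and 4 their differences were -0.49 (adjusted p = 0.233) and 0.76 (adjusted p = 0.0648).

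At 95 h, 1 gene was higher in Flk+ cells, Ccnd2, and 1 lower, Plk5, where 0.659% and 1.37% of all features were called. Both stayed called without Flk+ arrays 2 and 4 at 84 h (1.31% higher and 2.4% lower of all features), and with only the 8 arrays of that time 0 were. With the array number as a block, 4 were called (3.12% of all features), Cdk14 (0.46, adjusted p = 0.037) and Cdkn1c (0.49, adjusted p = 0.0217) being added. At 8 d, 0 of the 86 genes were called between the sorts by limma (0.373% of all features were), and 7 had an unadjusted p under 0.05, against 4.81% of all features. Ccnd2 was called at 8 d without Flk+ array 2 at 84 h or Flk- array 1 or 2 at 95 h. With the block 2 were called (0.797% of all features), Ccnd2 and Cdkn2d (0.46, adjusted p = 0.0378), and with only the 8 arrays of that time 4 were, near the 5.46% of all features in that fit: Ccnd2 (-0.62), Plk1 (-0.41), Cdk1 (0.40) and Cdk19 (0.32). The share of cell cycle genes called between the sorts was thus near that of all features after 84 h. It was 2.33% against 2.03% at 95 h, and 0% against 0.373% at 8 d. At 8 d the sorts did not overlap for 14 of the 86 genes and for 15.9% of all features. A scarcity of differences particular to these genes was not shown at this number of arrays.

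Between 84 h and 95 h in Flk+ cells, 16 genes rose (11.2% of all features did) and 8 fell (8.62% of all features; 19.8% were called either way), with a median of 0.053 against -0.005. Without Flk+ arrays 2 and 4 at 84 h, 3 were called (5.06% of all features), 2 of them higher (3.71% of all features): Mcm2 rose by 0.60 (adjusted p = 0.033, and by 1.00 with all arrays), Bub1b rose by 0.61 (adjusted p = 0.0431), and Orc5, an origin recognition subunit, fell (-0.58, adjusted p = 0.0375). The count was 10 without Flk+ array 2 or array 4 alone and 14 without Flk+ array 2 at 95 h, and 0 with only the 8 arrays compared. Mcm2 read 0.11, -0.75, -0.08 and -0.82 at 84 h, and its 95 h values lay above all of these, as 13.2% of all features did in either direction. Among the other called genes, Mcm6 (1.64), Cenpa (1.32), Rfc3 (1.09), Cenph (1.06) and Cdk9 (0.82) had the largest rises with all arrays, and the 95 h values on Flk+ arrays were 1.58, 1.34, 1.27 and 1.15 for Cenpa, 0.87, 1.23, 0.95 and 0.94 for Cenph, 1.07, 0.67, 1.18 and 0.62 for Rfc3, 1.91, 1.35, 1.72 and 1.57 for Mcm6 and -0.17, 0.51, 0.18 and 0.33 for Cdk9. None of these 5 was called without the pair.

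In Flk- cells, 0 genes rose (1.06% of all features did) and 2 fell between 84 h and 95 h (0.585% of all features). Mcm3 went from 2.03, 2.26, 1.99 and 2.18 to 1.46, 1.67, 1.53 and 1.79 (-0.50 ± 0.12, adjusted p = 0.0352), and Cdk8, a kinase of the Mediator complex, from 0.16, 0.16, 0.22 and 0.27 to 0.05, -0.38, -0.16 and -0.30 (-0.40 ± 0.09, adjusted p = 0.0283). Neither overlapped between the times, where 9.98% of all features did not. The count of 2 fell to 0 without any 1 of the Flk- arrays at 84 h or without Flk- array 2 at 95 h, was 1 without Flk- array 3 or 4 at 95 h, and reached 6 without Flk- array 1 at 95 h and 4 without Flk+ array 2 at 84 h or at 95 h. Without Flk+ arrays 2 and 4 at 84 h, 9 were called (5.36% of all features), 4 higher (3.39% of all features) and 5 lower (1.97% of all features), with Mcm2 (0.55), Bub1b (0.51), Cdkn1a (0.69) and Cdc25c (0.48) as the rises. The change of the sort difference between 84 h and 95 h was called by limma for 0 of the 86 genes and for 1 feature in all (0.00573%), with 14 of the genes at an unadjusted p under 0.05 (15.4% of all features). The Flk+ calls in this interval are therefore not shown to differ from those of the Flk- cells.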

How the data were processed

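The authors deposited a log ratio per probe and array, handled here as log2 of Cy5 (sample) over Cy3 (pup reference). Log base, direction, feature extraction, background correction and normalization are not given in the sources used here; each array as deposited had a mean of 0. Genes of pup tissues, averaged over a list of 8, lay below the reference on every array, although 2 of the 8 had a mean above 0 in Flk+ cells at 84 h and 1 at 8 d; the direction was read from this and from Kdr. Each array's median was set to 0, since deposited medians ran from 0.046 to 0.197. Probes of 1 gene were averaged (15 of the 86 genes had more than 1 probe), giving 17440 features and 18 residual and 3.41 prior degrees of freedom.

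All 24 arrays entered 1 limma fit (R 4.3.3, limma 3.58.1, package data.table at version 1.17.8; Python 3.11.15, pandas 2.3.3 and matplotlib 3.10.9 for figures and promoter windows) with a mean per group. Benjamini-Hochberg adjustment covered all features, and a gene was called at an adjusted p under 0.05. Errors are SEs of the fit after a difference and SDs of 4 arrays after a mean; array number limits precision. The code was tested on simulated data. Members and lists were chosen with earlier results of these data known. Values on every array are printed for the up to 6 called genes with the largest differences per comparison and for Cdkn1a, Cdkn1c, Ccnd2, Pcna, Mki67 and Mcm2. Correlations between same-numbered arrays of the sorts, as deviations from the group means, were 0.107 to 0.417 at 95 h and 0.146 to 0.437 at 8 d, each array matching its own number best, and -0.127 to 0.526 at 84 h. Numbers were therefore read as possibly pairing arrays at 95 h and 8 d, a hint from the data that the labels do not state. The main fit did not use this pairing, which entered only the alternative with the array number as a block. The 32 alternatives changed centring, normalization, probe choice, the arrays fitted or the block.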

Additional observations from a re-analysis of the deposited data

Results flagged for a closer look

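The change of the Ccnd2 sort difference between 95 h and 8 d, -1.45, is listed because the test of that difference passed. In the 144 sets of 4 arrays examined (24 genes in 6 groups), 13 single arrays lay far from the other 3 of their group by Dixon's criterion; chance flags about 1 in 20 such sets. At 84 h these were Flk- array 4 for Cdk1 (0.53) and Cenph (0.31) and Flk- array 3 for Cdkn2b (-0.98). At 95 h they were Flk- array 1 for Ccnb2 (0.47) and Cenph (1.70), Flk- array 2 for Pcna (0.97) and Flk- array 3 for Cdkn2b (0.18). At 8 d they were Flk+ array 2 for Ccnd2 (-0.56) and Mcm6 (0.68), Flk+ array 1 for Cdk7 (1.52) and Cdkn2b (0.46), Flk- array 3 for Cdkn2d (-0.44) and Flk- array 4 for Mcm3 (1.15).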

How the results depend on the processing

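For the number of cell cycle genes called, 4 arrays per group limit what can be seen, and the widely split Flk+ arrays at 84 h enter the shared spread of every comparison. Leaving out Flk+ arrays 2 and 4 at 84 h gave 7 instead of 23 for the sorts at 84 h, 1 instead of 0 at 8 d, 3 instead of 24 for Flk+ and 9 instead of 2 for Flk- cells from 84 h to 95 h, and 41 instead of 27 for Flk+ and 33 instead of 20 for Flk- cells from 95 h to 8 d, with all 27 and all 20 kept. Leaving out Flk- array 4 at 84 h as well gave 5, 1, 3, 8 and, for Flk- cells to 8 d, 34. This and the removal of the arrays numbered 2 at 95 h, which gave 1 for the sorts at 8 d and 0 for Flk- cells from 84 h to 95 h, were chosen after seeing the data. Quantile normalization gave 15 for the sorts at 84 h, 2 at 8 d and 11 for Flk+ cells from 84 h to 95 h, values as deposited gave 1 at 8 d, and the most variable probe of each gene gave 1 for Flk- cells from 84 h to 95 h. With only the arrays compared, the counts were 1, 0 and 4 for the sorts at 84 h, 95 h and 8 d, and 0 in both sorts from 84 h to 95 h; the cause was not tested. With the array number as a block, 36 were called at 84 h, where the numbers are not shown to pair arrays, 4 at 95 h and 2 at 8 d, and no other count moved by over 1.5 times. For the sorts the block was the number within a time. For the comparisons of times it was the number across times, which no label states to pair arrays. Leaving out single arrays gave 7 to 35, 2 to 3 and 0 to 1 for the sorts, 10 to 35 and 0 to 6 from 84 h to 95 h, 19 to 31 and 15 to 22 from 95 h to 8 d, and 0 to 0 and 1 to 2 for the changes of the sort difference. No gene called in the main analysis was called in the opposite direction under any alternative.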
